A study of Homo sapiens with 24 samples.

Results

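The comparison described here is the CRISPRi knockdown of FAM167A in SK-N-SH cells against its non-targeting control, taken across all genes. Its members were chosen by the sample labels alone: 3 knockdown and 3 control RNA sequencing libraries, 6 of the 24 libraries of the series. SK-N-SH is an established human neuroblastoma line. The knockdown cells carried an sgRNA against FAM167A, which the labels call DIORA1, and the control cells an sgRNA against Gal4, a yeast sequence that serves as non-targeting control (NTC). Both groups shared the repressor SpCas9-KRAB, the culture conditions and the library kit. The labels give no time after guide delivery, do not say whether the lines are clones or pools, and do not say whether the replicates are separate cultures, so p-values measure the spread between these libraries, which may be technical. The other libraries of the series, an siRNA knockdown in SK-N-SH (10 libraries) and a CRISPRi knockdown in the neuroblastoma line SK-N-AS (8 libraries), were used only to see whether a response recurred.

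CRISPR interference places a Cas9 fused to a KRAB repressor domain on a promoter, where KRAB recruits chromatin silencing factors and transcription from that promoter falls. Neuroblastoma arises from sympathetic progenitors of the neural crest, and its cells are commonly described along an axis from an adrenergic state, held by factors such as GATA3 and HAND2, to a mesenchymal state with PRRX1, YAP1 and TAZ and much extracellular matrix. SK-N-SH is known for holding cells of both kinds. FAM167A is named in the series' title as a partner of the MRCK kinases, which act on myosin downstream of CDC42.

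Of 61541 genes listed, 30885 had no read in any of the 6 libraries, and 15391 passed the filter on low counts and were tested. Reads assigned to genes ranged from 11690515 to 21628076 per library. Mitochondrial genes took 5.72 to 6.56% of reads in the knockdown and 4.66 to 5.49% in the control, and the 50 highest genes took 15.8 to 16.4% and 12.9 to 13.6%. Levels are given as CPM, counts scaled by TMM to a common library size, and changes as log2 of knockdown over control with their SE (standard error). The verbs rose and fell stand for an adjusted p under 0.05 by the quasi-likelihood test of edgeR with Benjamini-Hochberg adjustment over all genes tested.

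The targeted gene came first. FAM167A (ENSG00000154319, GRCh38 chromosome 8, 11421476 to 11475908, minus strand) had 58, 48 and 41 reads in the knockdown libraries against 2781, 3868 and 5478 in the control. In CPM these were 3.79, 3.24 and 2.62 against 230, 255 and 242, so every knockdown library lay far below every control library. The log2 fold change was -6.23 (SE 0.08, edgeR adjusted p = 1.82e-37). Of the neighbours within 100 kb, 3 with few reads were lower as well: BLK, a kinase of B cells whose start lies 10986 bases away, fell from 1.07 to 0.262 CPM, and the pseudogene TDH (log2 fold change -1.58) and its antisense gene TDH-AS1 (-1.9) fell. A lncRNA with more reads, ENSG00000269954, fell from 38.3 to 27 CPM. The farthest tested neighbour, a protein-coding gene 93330 bases away, rose from 41.3 to 46.5 CPM (log2 fold change 0.17).

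The response reached far beyond the target. Of the genes tested 8582 changed, or 55.8%, of which 4269 rose (27.7%) and 4313 fell (28%). At least 2-fold, 449 rose (2.92%) and 1209 fell (7.86%), and at least 4-fold 68 rose and 288 fell. In 9336 genes (60.7%) the knockdown and control libraries did not overlap. The balance between rises and falls rests on the scaling: by total counts alone 2791 rose and 6397 fell, and the median over all genes moved from -0.007 to -0.136 on the log2 scale. Small changes are therefore read relative to that median.

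**Figure D1:**
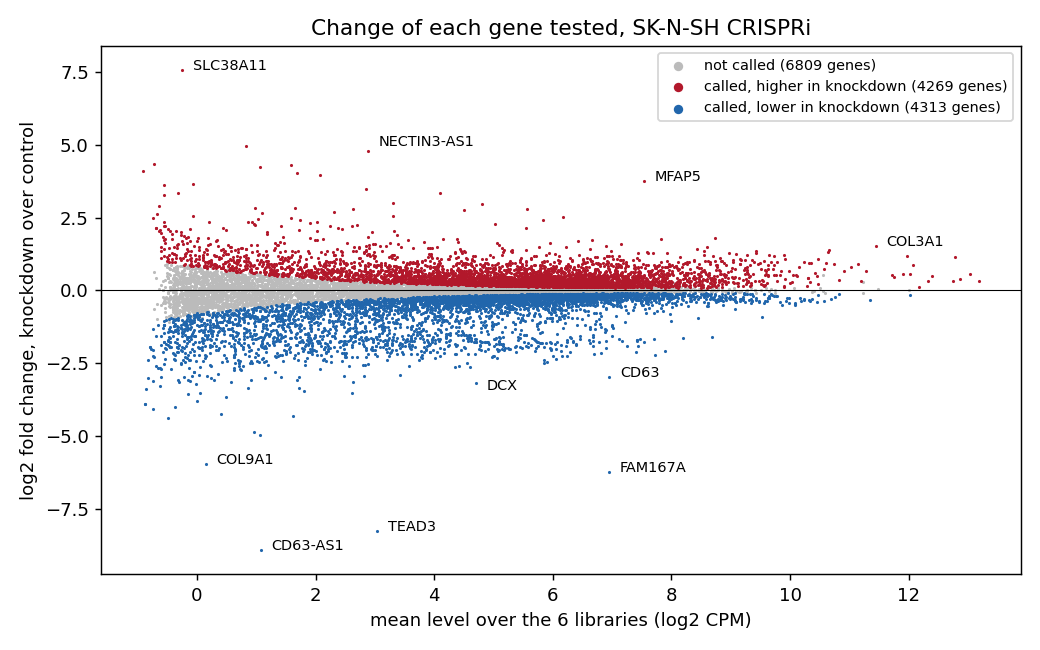
Each point is 1 of the 15391 genes tested, with its mean level over the 6 libraries (log2 CPM) on the horizontal axis and its log2 fold change, knockdown over control, on the vertical axis; red points rose, blue points fell and grey points were not called. A band of blue points runs from -1.5 to -2 on the log2 scale over a wide range of levels with no such band above 0, and CD63-AS1, TEAD3 and FAM167A lie apart at the bottom.

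Falls and rises differed in their sizes. Where the mean level was 3 log2 CPM or more, changes of 0.5 to 1 on the log2 scale were 871 rises and 445 falls, whereas changes of 1.5 to 2 were 20 rises and 212 falls. From 1 to 1.5 there were 144 rises and 160 falls, fewer falls than in the next bin up. Of the 212 falls between 1.5 and 2, 45 belonged to 8 lists of neuronal and adrenergic genes described further on. Over those 8 lists, 263 genes were tested, 185 fell, 134 of them at least 2-fold, and 46 rose. The quartiles of the 185 falls were -1.89 and -0.94 with a median of -1.59.

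Besides FAM167A, 17 genes were nearly off, with a mean level at most 10% of control and a control mean of at least 1 CPM. The first of these shares a start region with another gene that also fell. CD63-AS1 is a long non-coding RNA on chromosome 12 (55729094 to 55730857, plus strand). CD63, on the opposite strand, encodes a tetraspanin of late endosomes and exosomes; it is named here because its start lies 85 bases from that of CD63-AS1, a choice made after its value was seen. The 300 bases around each annotated start, 250 before and 50 after, are printed because they overlap by 184 bases (chr12:55728960-55729143), which stand in capitals in both and are the reverse complement of each other (RefSeq, GRCh38.p14).
CD63, chr12:55728960-55729259, minus strand: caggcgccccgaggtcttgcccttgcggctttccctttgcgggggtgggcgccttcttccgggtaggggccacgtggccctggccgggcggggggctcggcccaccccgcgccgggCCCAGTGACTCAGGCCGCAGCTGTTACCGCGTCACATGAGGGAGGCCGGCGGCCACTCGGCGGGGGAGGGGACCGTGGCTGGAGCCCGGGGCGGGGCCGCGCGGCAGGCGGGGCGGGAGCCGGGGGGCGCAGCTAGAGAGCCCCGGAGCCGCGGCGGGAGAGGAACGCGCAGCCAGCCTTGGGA
CD63-AS1, chr12:55728844-55729143, plus strand: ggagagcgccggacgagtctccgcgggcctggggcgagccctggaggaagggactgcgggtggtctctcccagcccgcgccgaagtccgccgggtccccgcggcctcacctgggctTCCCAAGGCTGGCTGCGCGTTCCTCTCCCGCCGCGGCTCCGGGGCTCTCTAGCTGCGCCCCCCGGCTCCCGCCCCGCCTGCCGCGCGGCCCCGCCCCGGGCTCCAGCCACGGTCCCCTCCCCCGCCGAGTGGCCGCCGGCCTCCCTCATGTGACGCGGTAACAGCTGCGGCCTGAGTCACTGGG

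CD63-AS1 had 0, 0 and 0 reads in the knockdown libraries against 46, 61 and 83 in the control, at least 58-fold lower when the knockdown group is set to a floor of 3 reads in all. CD63 stood at 27.4, 28.1 and 28 CPM in the knockdown against 229, 205 and 222 in the control. No library overlapped in either gene. CD63 fell by 2.97 on the log2 scale (SE 0.05, edgeR adjusted p = 1.35e-33). Other genes within 100 kb were mixed: DNAJC14 stood at -0.04 and BLOC1S1 at -0.18 without passing, and ITGA7, a laminin receptor chain with a control mean of 4.55 CPM, fell by 1.29. How the counting treated strand is not stated in the labels, so reads from the overlapping first part of the pair cannot be told apart by gene.

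TEAD3 was the second. It encodes 1 of the TEAD transcription factors, the DNA-binding partners of YAP1 and TAZ. Its reads were 1, 0 and 1 in the knockdown against 195, 248 and 339 in the control, a ratio of 358 with a 95% exact interval of 98.9 to 2960 that covers counting error only. The knockdown libraries were at or next to 0 while the control libraries sat close together at 16.1, 16.4 and 14.9 CPM. Its start region is shown because the gene was lost while its tested neighbours within 100 kb changed far less. RPL10A, 2812 bases away (-0.33), FANCE (-0.49) and PPARD (-0.28) fell, and the farthest tested neighbour rose (0.19). The capital marks the annotated first transcribed base.
TEAD3, chr6:35497030-35497329, minus strand: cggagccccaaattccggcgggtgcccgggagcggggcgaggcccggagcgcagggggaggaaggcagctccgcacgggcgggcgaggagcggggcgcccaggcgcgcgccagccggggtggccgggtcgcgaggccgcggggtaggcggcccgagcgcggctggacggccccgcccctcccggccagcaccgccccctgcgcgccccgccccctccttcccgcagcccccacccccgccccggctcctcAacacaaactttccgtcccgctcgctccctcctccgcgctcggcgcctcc

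The other members of the TEAD family did not follow TEAD3. TEAD1 rose from 287 to 359 CPM (log2 fold change 0.32), TEAD2 rose (0.66), and TEAD4 had 23.2, 23.3 and 22.9 CPM in the knockdown against 24.5, 23.6 and 22.8 in the control, which overlapped and did not pass (-0.02). Of 19 genes of the TEAD and YAP core that were tested, 11 rose and 3 fell, with a median of 0.24. The coactivator genes YAP1 (0.76) and WWTR1, which encodes TAZ (0.99), rose, as did AMOTL2 (0.45), while AMOT, which binds and retains YAP1, fell by 1.65. The TEAD target genes CCN2 (0.74), ANKRD1 (0.57) and CCN1 (0.42) rose.

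Among the other genes nearly off, COL9A1, a chain of cartilage collagen IX, had 0, 1 and 0 reads against 21, 26 and 46, a ratio of 85.2 with an interval of 14.9 to 3400. SILC1, a long non-coding RNA on chromosome 2, had 1, 3 and 1 reads against 29, 80 and 74. HFM1, a helicase of meiotic recombination, had 1, 3 and 1 against 26, 74 and 69. In all of these the lowest control library stood well above the highest knockdown library.

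IFNLR1, a receptor chain for type III interferons, had 0, 2 and 0 reads against 8, 16 and 30. SERTM2, a small membrane protein gene 99216 bases from DCX on chromosome X, had 3, 2 and 7 against 59, 94 and 118. SCN4B, an auxiliary sodium channel subunit, had 3, 1 and 1 against 28, 32 and 50. The other 9 were LINC02623, TMIE (part of the hair cell mechanotransduction channel), CPNE8, OSTN, IL17RB (an IL-25 receptor), LAMP5, ENSG00000248540, CRTAC1 and NMU (the peptide neuromedin U). Of these, LAMP5, a lysosome-associated membrane protein of neurons, fell from 10.8 to 0.918 CPM.

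Neighbours of these genes were mixed. CHDH, the choline dehydrogenase gene whose start lies 149 bases from IL17RB, fell by 2.61 on the log2 scale, while ACTR8, 1272 bases away, stood at -0.04. ENSG00000248540 overlaps ISLR2, which fell by 2.19, while of genes farther away ISLR and PML rose (1 and 0.63) and STRA6, the retinol transporter gene, fell by 1.85. GOLGA7B, beside CRTAC1, fell by 1.37. Just inside the 10-fold threshold lay NMU at 10.3-fold and CRTAC1 at 10.5-fold, and just outside it PRPH, the intermediate filament peripherin, at 9.64-fold and RNF175 at 9.45-fold. Without knockdown library 3 the count of genes nearly off, FAM167A included, rose from 18 to 28.

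**Figure D2:**
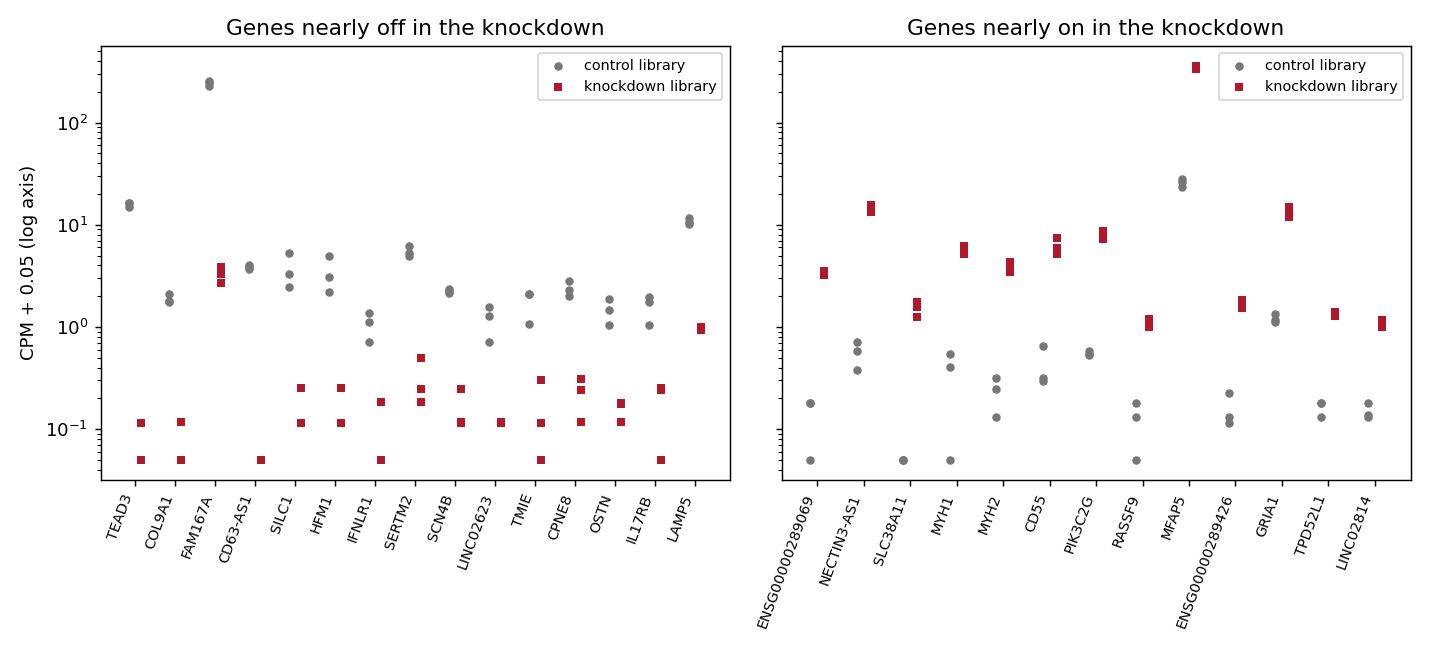
Every library's level is drawn for 15 of the 18 genes nearly off and for the 13 genes nearly on, as CPM + 0.05 on a log axis, with grey circles for control and red squares for knockdown libraries. No gene has overlapping groups; TEAD3, CD63-AS1 and COL9A1 reach the floor of the plot in the knockdown, and MFAP5 stands highest among the genes nearly on.

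The genes nearly on were 13. MFAP5, a glycoprotein of elastic microfibrils, was the abundant one, with 345, 360 and 335 CPM in the knockdown against 25.9, 23.5 and 27.8 in the control (log2 fold change 3.74, SE 0.05, edgeR adjusted p = 1.48e-36). NECTIN3-AS1, an antisense RNA on chromosome 3, had 223, 232 and 208 reads against 4, 10 and 12, and ENSG00000289069, a lncRNA on the same strand inside its span, had 49, 52 and 52 against 0, 2 and 3. The knockdown libraries agreed closely and the control libraries held a few reads each. NECTIN3 itself, the adhesion receptor gene, stood at 0.23.

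MYH1 and MYH2, myosin heavy chain genes of fast skeletal muscle, were switched on together. Another myosin heavy chain gene, 78826 bases from MYH2, was not called, with 3.27 CPM in the control and 3.29 CPM in the knockdown. MYH1 had 78, 92 and 91 reads in the knockdown against 6, 0 and 8 in the control, and MYH2 60, 50 and 67 against 1, 3 and 6. Their spans lie 2606 bases apart on chromosome 17 and the 2 genes are near-identical in much of their coding sequence, so reads may be split between them. CD55, which protects cells from complement, had 78, 108 and 91 reads against 3, 9 and 6. PIK3C2G, a class II phosphoinositide 3-kinase, had 8.04, 8.71 and 7.15 CPM against 0.496, 0.528 and 0.485.

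SLC38A11, an amino acid transporter gene, had 23, 18 and 27 reads against 0, 0 and 0, at least 24.7-fold higher against a floor of 3 reads over the group. RASSF9 had 17, 17 and 15 against 1, 0 and 3. GRIA1, an AMPA glutamate receptor subunit, had 224, 202 and 187 against 13, 17 and 29. The others were TPD52L1 (11.1-fold), ENSG00000289426 (14.7-fold) and LINC02814, which was just inside the threshold at 10.4-fold. FAM9C was just outside it at 9.94-fold, and TMEM204 followed at 7.97-fold.

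Other large changes were SUCNR1, the succinate receptor, at 85.5, 88.3 and 76.8 CPM against 11.7, 12.2 and 12.2 (log2 fold change 2.79), BGN, the matrix proteoglycan biglycan (2.96), and COL15A1, a basement membrane collagen (2.84). Among the falls were CD36, a scavenger receptor for lipids, from 10.5 to 1.17 CPM (-3.15), DCX, the microtubule protein doublecortin (-3.18), TMEM229A (-3.07), CHRDL1, a BMP antagonist (-3.01), and OPRD1, the delta opioid receptor (-2.99).

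The other 2 knockdowns of FAM167A were set beside these genes. FAM167A itself fell less in both: from 188 to 65.2 CPM with siRNA (log2 fold change -1.53) and from 95.1 to 10.2 CPM in SK-N-AS (-3.22), against -6.23 here. The responses are therefore not compared at a like loss of the target. With siRNA in SK-N-SH, 17 of the 18 genes nearly off were tested: FAM167A fell and LINC02623 rose, where 6.98% of all genes fell and 2.55% rose. TEAD3 had 6551 reads with the siRNA against 6729 in its control (-0.15, adjusted p = 0.18), and CD63-AS1 stood at -0.06. In SK-N-AS CRISPRi, 15 were tested and 7 fell, where 15.5% of all genes did: TEAD3, FAM167A, CD63-AS1, SILC1, HFM1, LINC02623 and LAMP5, while CPNE8 rose.

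TEAD3 fell in SK-N-AS from 28.5 to 1.28 CPM (log2 fold change -4.47, edgeR adjusted p = 5.26e-25). CD63-AS1 (-1.13) and CD63 (-0.7) fell there too. With siRNA in SK-N-SH, CD63 also fell, from 282 to 220 CPM (log2 fold change -0.36, edgeR adjusted p = 0.00431). The fall in SK-N-SH CRISPRi was larger than that in SK-N-AS: the difference in log2 fold change was -3.93 for TEAD3 (SE 0.69, edgeR adjusted p of the difference 1.19e-05) and -2.25 for CD63 (SE 0.06, adjusted p = 3.96e-33). TEAD3 therefore fell in both CRISPRi experiments and was not called with siRNA. The 2 CRISPRi experiments have separate controls, and whether their guides are the same is not given in the labels.

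Of the 13 genes nearly on, 4 could be tested with siRNA, where GRIA1 rose and CD55 and RASSF9 fell, and 4 in SK-N-AS, where PIK3C2G rose (0.69). MFAP5 stood at 0.24 with siRNA without passing (adjusted p = 0.0918), and had 2 control and 6 knockdown reads in SK-N-AS. MYH1 and MYH2 had no read in SK-N-AS. The difference from siRNA was 3.5 on the log2 scale for MFAP5 (SE 0.1, edgeR adjusted p = 1.06e-23) and 5.38 for CD55 (SE 0.49, adjusted p = 4.16e-11). Control levels in SK-N-SH also differed between the experiments for some switched genes. RASSF9 stood at 1.25 CPM in the siRNA controls, against 0.0717 CPM in the control and 1.07 CPM in the knockdown here. SERTM2 stood at 50.4 CPM in the siRNA controls and 5.43 CPM in the control here. TEAD3 was close, at 18 and 15.8 CPM. What sets these control levels was not tested.

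Some host transcripts of microRNAs rose and others fell. MicroRNAs are cut from longer host RNAs and pair with messenger RNAs through a seed, bases 2 to 8. Poly(A) libraries measure the hosts, and the mature microRNAs were not measured. Of 36 such loci tested, 12 rose (33.3%) and 7 fell (19.4%), against 27.7% and 28% of all genes tested. The mature sequences (RefSeq, seed in capitals) are printed because a host that rose and a host that fell encode microRNAs with the same seed, miR-100 with miR-99a and let-7a with let-7c, and the others as products of hosts that changed; the sequences shown and MIR99AHG, MIR9-1HG and CARMN were chosen after the values were seen.
hsa-miR-100-5p, from MIR100HG: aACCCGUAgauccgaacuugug
hsa-miR-99a-5p, from MIR99AHG: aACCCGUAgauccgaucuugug
hsa-let-7a-5p, from MIR100HG: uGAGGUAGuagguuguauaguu
hsa-let-7c-5p, from MIR99AHG: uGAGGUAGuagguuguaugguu
hsa-miR-221-3p, from MIR222HG: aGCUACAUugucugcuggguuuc
hsa-miR-222-3p, from MIR222HG: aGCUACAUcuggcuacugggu
hsa-miR-143-3p, from CARMN: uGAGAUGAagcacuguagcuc
hsa-miR-145-5p, from CARMN: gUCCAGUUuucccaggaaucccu
hsa-miR-9-5p, from MIR9-1HG: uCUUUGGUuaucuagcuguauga

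MIR100HG had 70.6, 61.6 and 68.9 CPM in the knockdown against 34.1, 37.7 and 38.4 in the control and rose (log2 fold change 0.86). MIR99AHG, its counterpart on chromosome 21, had 0.981, 0.877 and 0.639 CPM against 3.22, 3.96 and 2.91 and fell by 1.99. The groups did not overlap in either host, and MIR100HG was by far the more abundant of the pair.

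CARMN, host of the smooth muscle microRNAs miR-143 and miR-145, rose by 2.3 from 0.397 to 0.858 CPM in the control libraries to 2.5 to 3.4 CPM. MIR22HG (1.16), MIR222HG (1.06) and MIR503HG (1.3) rose too. MIR9-3HG (-2.1) and MIR9-1HG (-1.82) fell; both host miR-9, a microRNA of neural progenitors and neurons.

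The adrenergic program fell nearly as a whole. Of 26 adrenergic transcription factors tested, 25 fell and 1 rose, with a median of -1.65. GATA2 had 91.2, 89.4 and 92.1 CPM in the knockdown against 393, 389 and 370 in the control, with no overlap. PHOX2A (-1.78) and TFAP2B, a factor of sympathetic neurons (-1.66), fell. TBX2 was the exception and rose (0.59).

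Enzymes of catecholamine synthesis, storage and breakdown followed: 9 of 14 fell and 1 rose, with a median of -1.36. DBH, which makes noradrenaline from dopamine, had 201, 200 and 206 CPM against 602, 627 and 633, with a wide gap between the groups. The noradrenaline transporter SLC6A2 stood at -1.97, GCH1, which makes the cofactor of tyrosine hydroxylase, at -1.43, and CYB561, which supplies electrons for DBH in granules, at -1.29.

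In bulk libraries fewer cells of a type and less RNA of that type per cell cannot be told apart. Markers of other cell types were near 0 in both groups for most of their defining genes. SOX10, FOXD3, CDH19, EDNRB, FABP7 and MAL of glia had no read, nor had KRT5, KRT14 and ESRP1 of epithelium, KDR and PLVAP of endothelium, or CD3E, MS4A1 and HBB of blood. Some markers were well expressed. Of 6 epithelial markers tested 3 rose and 1 fell, and the summed level of the list was 94.1 to 101 CPM in the control and 179 to 189 CPM in the knockdown. Most of it came from KRT18, a keratin of simple epithelia, with a mean of 73.2 CPM in the control and 140 CPM in the knockdown, and KRT8, its partner, rose from 8.94 to 21.2 CPM. Of 6 endothelial markers 4 rose and 1 fell, with a summed level of 16.4 to 18.4 CPM in the control and 22.5 to 24.1 CPM in the knockdown. The 1 blood marker tested rose, from 0.33 to 0.579 CPM in the control to 0.766 to 0.981 CPM in the knockdown. Of 5 glial markers 1 rose and 2 fell, and PMP22, a myelin protein gene, fell from 90.2 to 70.1 CPM. Of 15 entries of fibroblast and pericyte markers tested, 2 of them for RGS5, 12 rose and 1 fell. Their summed level was 7930 to 8620 CPM in the control and 16800 to 17400 CPM in the knockdown. Most of it came from COL1A1 (4450 CPM in the control, 9720 CPM in the knockdown) and COL3A1 (1440 and 4120 CPM). The fall was the abundant entry of RGS5, a pericyte marker, from 966 to 511 CPM. SK-N-SH itself expresses these genes in the control, and their part in the other results was not tested.

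Secretory and synaptic genes fell in larger part than they rose. Of 18 granins, prohormone convertases and neuropeptides, 12 fell and 5 rose (median -1.09). GAL, the peptide galanin, stood at -1.5, SCG3 at -1.81, PCSK1N at -2.04 and VGF at -0.97. SCG2 (0.56), CPE (0.43) and PAM (0.5), which process or fill the same granules, rose, as did GRP, gastrin-releasing peptide (1.45), so the granule genes split. Of 40 synaptic vesicle and release genes 23 fell and 11 rose (median -0.47), with SNAP91 at -1.97, SV2C at -1.89, SYP, synaptophysin, at -1.67 and UNC13A, a priming factor, at -1.59.

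Of 33 neuronal cytoskeleton genes 25 fell and 5 rose (median -0.93). DPYSL5, a collapsin response mediator, had 24.4, 27.7 and 26 CPM against 115, 132 and 125, while its relative DPYSL3 had 565, 577 and 569 against 288, 264 and 291. The groups were apart in opposite directions for these members of 1 family. CRMP1, the third member shown, stood at -1.93, and the axonal motors KIF1A and KIF5C at -1.91 and -1.62.

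A like split appeared among RNA-binding proteins that set splicing. Of 22 neuronal RNA-binding genes 18 fell and 3 rose (median -1.21). ELAVL3 stood at -1.91, CELF3 at -1.74, MSI1 at -1.97 and SRRM3, which promotes neuronal microexons, at -1.53. MBNL1 (0.44), MBNL2 (0.38) and QKI (0.33), splicing regulators that muscle and other mesenchymal cells also use, rose.

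Ion channels and receptors fell with them. Of 64 voltage-gated channel genes 43 fell and 12 rose (median -0.88). KCNH2, the potassium channel hERG, had 34.1, 36 and 36.3 CPM against 134, 129 and 129. CACNA2D2 stood at -1.69 and CACNG4 at -1.07. Of 46 ligand-gated and monoamine receptor genes 30 fell and 8 rose (median -1.01). CHRNA3, the alpha 3 subunit of the ganglionic nicotinic receptor, had 26.1, 24.4 and 27.7 CPM against 102, 112 and 102, and CHRNB2 stood at -1.84, while GRIA1 was among the genes switched on.

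Receptor tyrosine kinases of the neural crest were mixed, with 9 of 18 down and 5 up. ALK stood at -1.94 and NGFR, a neurotrophin receptor, at -2.26. Retinoid genes moved with them in part: of 10 tested, 5 fell (50%) and 3 rose (30%), against 28% and 27.7% of all genes. ALDH1A3, which makes retinoic acid, stood at -1.54, while CRABP2 rose (0.38).

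**Figure D3:**
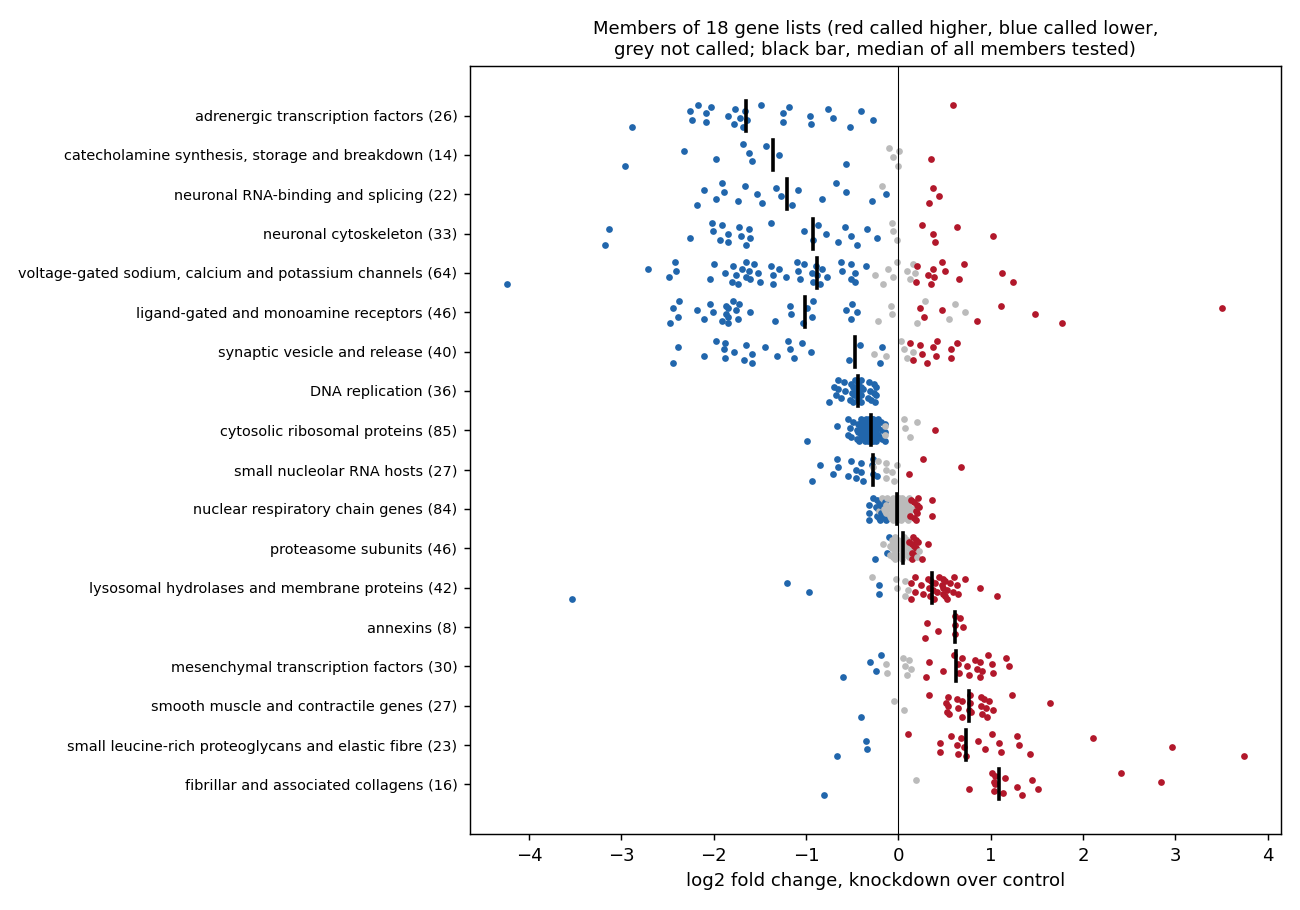
Members of 18 gene lists are drawn by log2 fold change, knockdown over control (horizontal axis), with 1 row per list and the number tested in brackets; red members rose, blue fell, grey were not called, and the black bar is the median of the members tested. Neuronal and adrenergic lists have medians between -1.65 and -0.47, DNA replication and ribosomal protein members lie in tight groups just below 0, and collagens, elastic fibre and contractile genes have medians between 0.73 and 1.09.

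Mesenchymal regulators rose. Of 30 mesenchymal transcription factors tested 19 rose and 4 fell, with a median of 0.62. PRRX1, a homeodomain factor of mesenchyme, had 860, 883 and 844 CPM in the knockdown against 378, 367 and 378 in the control, more than a doubling with no overlap. MEF2D (1.03) and AEBP1 (0.88) rose. TWIST1, a factor often listed with the same state, fell (-0.6), as did ZEB2 (-0.31), so the list did not move as 1 block.

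Matrix genes rose over most of their families. Of 16 fibrillar and associated collagens 14 rose and 1 fell (median 1.09). COL10A1, a short-chain collagen of hypertrophic cartilage, had 96.1, 99.1 and 92.9 CPM against 17, 18.9 and 18.1. COL1A1 had 9970, 9820 and 9370 against 4770, 4030 and 4540, yet COL1A2, the second chain of type I collagen, had 2.09, 2.63 and 2.75 against 4.13, 3.96 and 4.81 and was the 1 that fell. The chains of 1 trimer thus differed in level by a wide margin in both groups and moved in opposite directions; COL1A2 is named after its value was seen.

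Of 23 small leucine-rich proteoglycans and elastic fibre genes 20 rose and 3 fell (median 0.73), with DCN, decorin, at 1.11, FBLN5 at 1.43 and BGN and MFAP5 as given above. Basement membrane genes rose in 13 of 17 with 3 falls, the rises with the smallest adjusted p being COL4A1 (1.13), COL4A2 (1.02), LAMC1 (0.87) and NID2 (1.21). Collagen modifying enzymes rose in 23 of 27 with 3 falls: the lysyl oxidases LOXL2 (1.11) and LOXL3 (1.07) and the prolyl hydroxylase subunit P4HA2 (0.89) rose, while the procollagen N-proteinase ADAMTS2 fell by 1.68.

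Plasminogen activation and adhesion receptors rose in part. Of 15 serpins and plasminogen activation genes 12 rose and 1 fell, with PLAT, tissue plasminogen activator, from 192 to 662 CPM (1.78) and PLAU, urokinase, from 121 to 293 CPM (1.28). Among 19 integrins 11 rose and 5 fell. ITGA10, a collagen receptor chain, had 52.9, 51.8 and 58.3 CPM against 10.2, 10.8 and 12.3, while ITGA9, a tenascin receptor chain, had 6.41, 8.03 and 6.26 against 39.9, 42 and 36.6. ITGA2 (1.27) and ITGAV (0.97) rose. All 8 annexins tested rose, by 0.29 to 0.7.

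Contractile genes rose in 24 of 27, with 1 fall, SYNPO (-0.4), and a median of 0.77. LMOD1, an actin nucleator of smooth muscle, had 118 to 124 CPM in the knockdown libraries against 54.9, 49.5 and 51.8. TPM1 (0.93), TAGLN (0.95) and VCL, vinculin (0.98), rose. Many genes of this kind carry CArG boxes, 10-base sites for serum response factor with CC, 6 A or T bases and GG. In promoter windows of 250 bases before to 50 after the start, 5 of 26 contractile genes (19.2%) held a CArG box on either strand, against 1.02% of 11110 windows over all genes tested. The fragments of 2 that rose, ACTG2 and MYLK, are shown with the box in capitals; they were chosen after their values were seen.
ACTG2, chr2:73892868-73892974, plus strand: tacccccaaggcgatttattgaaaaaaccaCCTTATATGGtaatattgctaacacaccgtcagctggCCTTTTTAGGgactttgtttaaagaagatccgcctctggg
MYLK, chr3:123620603-123620672, minus strand: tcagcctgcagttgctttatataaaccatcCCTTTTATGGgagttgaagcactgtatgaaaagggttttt
ACTG2, enteric smooth muscle actin, had 7.46, 8.91 and 9.71 CPM against 2.32, 2.11 and 3.53, and MYLK, the myosin light chain kinase, 749, 775 and 707 against 418, 379 and 395. Both rose with no overlap.

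Among the MRCK kinases and myosin regulators 17 of 25 rose and 5 fell (median 0.28). CDC42BPA, which encodes MRCK alpha, had 201, 217 and 197 CPM against 150, 148 and 138 and rose (0.5); its gene lies on the long arm of chromosome 1, described below. CDC42BPB, MRCK beta, on chromosome 14, had 228, 234 and 227 against 196, 180 and 192 and rose by 0.28. CDC42BPG, MRCK gamma, had 2.35, 2.97 and 1.92 against 7.28, 6.53 and 6.26 and fell by 1.46. The abundant CDC42BPA and CDC42BPB thus rose, and CDC42BPG, at a far lower level, fell. CDC42BPB and CDC42BPG were named after their values were seen.

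Over all promoter windows the share with a motif differed between the sets of genes, as a description without a test. The TEAD motif GGAATG stood in 10.9% of windows of all genes, 16.4% of those of genes that rose at least 2-fold and 9.45% of those that fell at least 2-fold. The AP-1 motif TGANTCA stood in 4.43%, 7.67% and 5.24%, the GATA motif AGATAA in 5.05%, 12.2% and 7.79%, and the TATA box TATAAA in 5.7%, 15% and 8.81%. In the windows of the contractile list GGAATG stood in 8 of 26 (30.8%), and in those of the replication list in 5 of 32 (15.6%). Both strands were searched, and TATAAA can lie inside a CArG box. Windows were found for 287 of the 449 genes that rose at least 2-fold and for 783 of the 1209 that fell.

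DNA replication genes fell without exception: 36 of 36, by small amounts (median -0.44). By total counts alone 36 of 36 fell as well, but that scaling moved the median of all genes down, so it could not test these falls. MCM3, a subunit of the replicative helicase, had 180, 172 and 176 CPM in the knockdown against 277, 295 and 286 in the control. MCM4 stood at -0.59, MCM2 at -0.58 and MCM7 at -0.52. Mitosis genes moved less, with 20 of 36 down and 2 up (median -0.12), among them UBE2C (-0.38) and CENPA, the centromeric histone (-0.56); by total counts 31 fell. The core histone list had 7 falls (24.1%) and 4 rises (13.8%) in 29, against 28% and 27.7% of all genes, with H2AX at -0.49.

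The letters TTTCCCGC, a site of the E2F factors that switch on S phase genes, stood in 9 of 32 promoter windows of the replication genes (28.1%), against 2.59% of all windows, 1.39% of those of genes that rose and 1.28% of those that fell at least 2-fold. Fragments are printed for 4 genes that fell, with the site in capitals, as these letters or their reverse complement. CDT1, a licensing factor, and PCNA, the sliding clamp, were chosen with MCM3 and MCM7 after their values were seen.
MCM3, chr6:52284879-52284946, minus strand: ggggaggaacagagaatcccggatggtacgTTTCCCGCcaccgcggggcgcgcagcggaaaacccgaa
MCM7, chr7:100101547-100101614, minus strand: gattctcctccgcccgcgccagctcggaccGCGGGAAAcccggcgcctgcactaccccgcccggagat
PCNA, chr20:5126644-5126711, minus strand: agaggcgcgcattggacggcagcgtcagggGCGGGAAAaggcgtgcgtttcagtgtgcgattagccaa
CDT1, chr16:88803724-88803791, plus strand: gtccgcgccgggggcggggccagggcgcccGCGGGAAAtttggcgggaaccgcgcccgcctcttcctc
CDT1 stood at -0.75 and PCNA at -0.49.

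Cytosolic ribosomal protein genes fell by still smaller amounts. Of 85 cytosolic ribosomal protein genes 78 fell and 1 rose (median -0.3). RPS7 had 415, 432 and 412 CPM against 676, 652 and 657, and RPL22L1, a paralogue of another ribosomal protein, fell by 0.99. RPS27L, a p53-induced paralogue, was the 1 that rose (0.4). Of 27 host genes of small nucleolar RNAs 16 fell and 3 rose (median -0.28), SNHG16 (-0.51) and SNHG1 (-0.55) among the falls. Of 61 translation initiation factors 24 fell (39.3%), 7 rose (11.5%) and 30 were not called, with EIF3L at -0.45.

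Nuclear respiratory chain genes stood near the median of all genes, with 12 rises and 18 falls in 84 (median -0.01), and 2 rises and 46 falls by total counts. Proteasome subunits had 12 rises and 3 falls in 46 with TMM but 2 rises and 19 falls by total counts, so no direction is given for them. Of 25 genes of the mitochondrial genome 15 rose and none fell (median 0.4), MT-CO1 from 8230 to 10400 CPM, a call that was lost without control library 2 (edgeR adjusted p = 0.0817). Lysosomal hydrolases and membrane proteins rose in 31 of 42 with 5 falls (median 0.36), with HEXA (0.72), LAMP1 (0.6) and CTSB, cathepsin B (0.53), against the loss of LAMP5.

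Gene types differed in how often they changed. Of 12899 protein-coding genes 59.5% changed, of 1763 lncRNAs 39.3% and of 621 pseudogenes 29.5%; lncRNAs fell in 398 cases and rose in 295. Expression moves with this: from the lowest to the highest quintile of mean level the share that changed went from 37.4% to 72.9%. Among protein-coding genes, the quintile with the longest spans (105 kb and more) changed in 68.3% and held 353 falls of at least 2-fold, against 55.5% and 164 in the quintile with the shortest spans. Of 394 antisense genes 101 fell (25.6%) and 58 rose (14.7%), and of 200 LINC genes 56 fell (28%) and 50 rose (25%). Over all genes tested 28% fell and 27.7% rose. Of 405 olfactory receptor genes listed 1 had enough reads to be tested.

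Rises were unevenly spread over the genome. The long arm of chromosome 1, taken as the genes beyond the 22.2 Mb stretch around the centromere (121 to 143 Mb) that holds no tested gene, had 701 tested genes, of which 431 rose (61.5%) and 72 fell (10.3%). Their median log2 fold change was 0.31, or 1.24-fold. On the short arm 218 of 863 rose and 238 fell, with a median of -0.01. Relative to the mean of the control libraries (the other 2, for a control library), the median of the long arm was 0.311, 0.297 and 0.28 in the 3 knockdown libraries and 0.018, -0.023 and 0.012 in the control libraries, so each knockdown library showed it.

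The median was 0.3 over 584 protein-coding genes, of which 66.6% rose, and 0.36 over 88 lncRNAs, of which 34.1% rose. By quintile of mean level, lowest first, the medians on the long arm were 0.262, 0.155, 0.275, 0.336 and 0.33, against -0.163, -0.072, -0.006, -0.004 and 0.041 over all other genes, and in the highest quintile 198 of 232 genes rose. The same genes had a median of -0.013 in the siRNA experiment and 0.001 in SK-N-AS CRISPRi. By total counts alone the long arm stood at 0.18, with 350 rises and 100 falls, where all genes stood at -0.136.

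**Figure D4:**
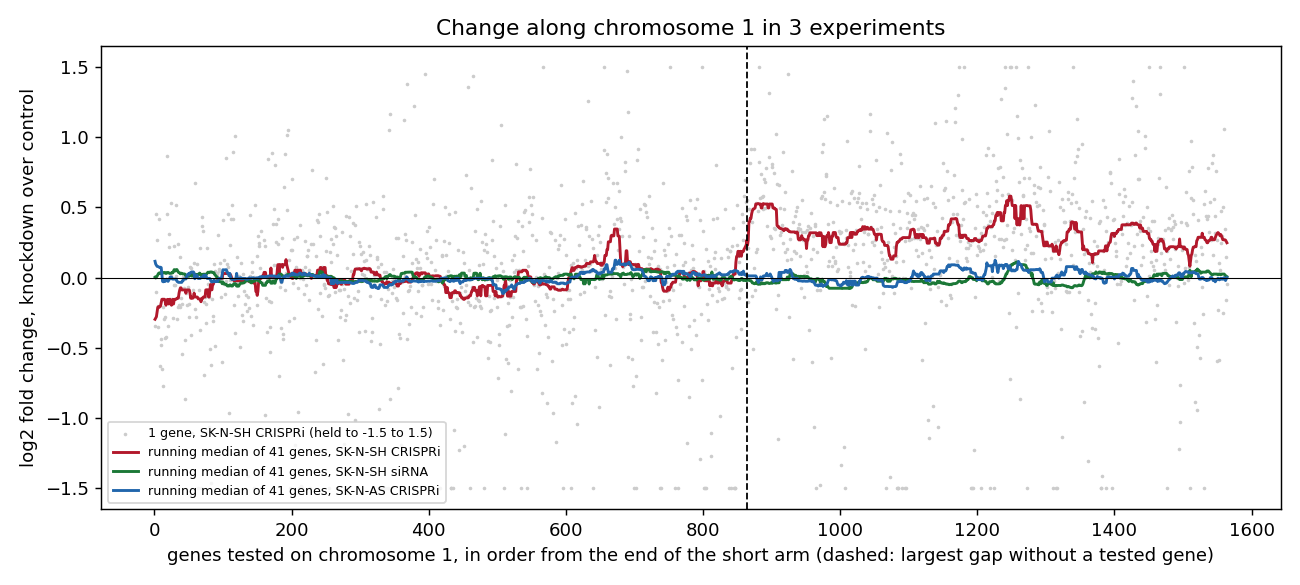
The log2 fold change, knockdown over control, of the genes tested on chromosome 1 is drawn in their order along the chromosome, with grey points for single genes in SK-N-SH CRISPRi and lines for the running median of 41 genes in the 3 experiments. The red line of SK-N-SH CRISPRi runs mostly near 0 before the dashed line, which marks the stretch around the centromere, apart from a low start and a raised stretch, and mostly between 0.1 and 0.6 beyond it, while the lines of the siRNA and SK-N-AS experiments stay near 0 along the whole chromosome.

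Of 285 windows of 10 Mb with at least 15 tested genes, 15 had a median over 0.2, and 10 of these were among the 11 windows on the long arm of chromosome 1. Medians under -0.2 were seen in 12 windows. The first 50 Mb of chromosome 2 had 124 falls and 42 rises in 230 genes (median -0.23, and -0.231, -0.208 and -0.189 in the 3 knockdown libraries), while the rest of chromosome 2 stood at 0.004. Between 20 and 30 Mb of chromosome 19 the median was -0.46 over 45 genes, 29 of which fell and 2 rose. This window holds a cluster of zinc finger genes: of 25 numbered zinc finger genes in it 20 fell and 1 rose, against 40 falls and 32 rises in 216 on the rest of chromosome 19. No DNA was measured in the files used here, and what sets these regional shifts was not tested.

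The position matters for gene families that lie together. The long arm of chromosome 1 holds 10.1% of all rises. All 8 S100 calcium-binding protein genes tested rose (median 0.73), S100A11 with 530, 522 and 526 CPM against 288, 272 and 287, and all 8 lie on that arm, so family and position cannot be told apart. SDHC (0.36) and PSMD4 (0.32), which rose in the respiratory chain and proteasome lists, lie there too. Of the other genes named here, ITGA10, MEF2D, CRABP2, PRRX1, LAMC1, LMOD1, CD55, CDC42BPA, LINC02814 and ENSG00000289426, which rose, are also on that arm. CELF3, CHRNB2, MIR9-1HG and RGS5, which fell, are there as well. Without the 3 members there, the mesenchymal transcription factors had 16 rises and 4 falls in 27 (median 0.6). The annexins, spread over other chromosomes, rose in all 8 without any gene on that arm, and the contractile list kept 23 rises in 26 and a median of 0.73 without its member there.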

How the data were processed

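RNA sequencing libraries of SK-N-SH CRISPRi cells, 3 knockdown and 3 control, were analysed. Per the labels' protocols RNA was extracted with TRIzol and RNeasy columns and libraries were made with Illumina Stranded mRNA Prep. Per the submitters' processing notes the tools of the series were bcl2fastq 2.20.0.422 and 2.20, CASAVA, FastQC 0.11.8, STAR 2.6.1d and featureCounts 1.5.1 with GRCh38. Which tool served which experiment, the annotation release and the strand setting are not stated in the labels. The authors deposited raw counts per gene, whole numbers that were not normalised; every column of the table was a library of the comparison, and 0 other columns were present.

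Counts were tested with edgeR 4.0.16 in R 4.3.3 (TMM, filterByExpr with a minimum count of 10 and total of 15, robust quasi-likelihood, Benjamini-Hochberg over the 15391 genes tested, two-sided). With 11690515 to 21628076 reads per library the common coefficient of variation between replicates was 3.77%. The procedure was tested on simulated data with known changes. These were few and balanced between rises and falls, so the simulation could not test the scaling where most genes change. DESeq2 1.42.0, other scaling and filters, a replicate block and leaving out each library were alternatives. Differences from the other experiments were tested as an interaction in edgeR for genes with at least 10 reads there. Intervals of ratios and floors of 3 reads cover counting error only. Gene names, types and positions are those of the deposited table. Promoter windows and microRNA sequences come from RefSeq (GRCh38.p14); 11110 genes tested had a window by symbol, and chromosome 8 was left out of the sequences.

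The genes named are FAM167A, genes nearly off or on, the 12 largest rises and falls, up to 4 called members of each list by adjusted p, and genes beside the 10-fold threshold. Neighbours and exceptions within a list, and other genes, were named after their values were seen. The gene lists and these rules were chosen with earlier results of these data known, so a list is described by counts and medians without a test.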

Additional observations from a re-analysis of the deposited data

Results flagged for a closer look

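Responses of the 8 named genes nearly off and the 8 nearly on with the largest folds, of CD63 and of FAM167A were set against the other experiments by a test of the difference itself, an interaction in edgeR over both experiments, where the other experiment had at least 10 reads. Each value is the log2 fold change in SK-N-SH CRISPRi minus that in the other experiment, and each one given passed at an adjusted p under 0.05. Of 23287 genes tested this way against siRNA 7317 differed, and of 19862 against SK-N-AS CRISPRi 6098, so a difference is common.

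Against siRNA in the same line, the genes nearly off differed by -8.28 (TEAD3), -6.65 (COL9A1), -10.75 (CD63-AS1), -5.13 (SILC1), -5.13 (HFM1), -4.89 (IFNLR1), -4.32 (SERTM2) and -4.36 (SCN4B). FAM167A differed by -4.72 and CD63 by -2.62. The genes nearly on differed by 5.04 (NECTIN3-AS1), 10.99 (SLC38A11), 3.47 (MYH1), 5.38 (CD55), 5.15 (PIK3C2G), 5.14 (RASSF9) and 3.5 (MFAP5). The values for CD63-AS1 and SLC38A11 come from a group with 0 reads and depend on the prior count of the fit.

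Against CRISPRi in SK-N-AS, the genes nearly off differed by -3.93 (TEAD3), -5.67 (COL9A1), -9.33 (CD63-AS1), -3.85 (SILC1), -3.62 (HFM1), -4 (IFNLR1) and -3.82 (SERTM2). FAM167A differed by -3 and CD63 by -2.25. The genes nearly on differed by 5.27 (NECTIN3-AS1), 3.37 (CD55), 3.31 (PIK3C2G) and 3.91 (RASSF9).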

How the results depend on the processing

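Counts over all genes depended on scaling and on the filter for low counts in some places. By total counts alone 2791 genes rose instead of 4269, since the median over all genes moved to -0.136. With a minimum count of 30, which tests fewer genes, 296 rose at least 2-fold, 20 genes were nearly off or on, and 8 were nearly on. With a 20-fold threshold 14 were nearly off or on. DESeq2 called 6841 genes, 6721 of them among the 8582 called by edgeR, and gave no adjusted p for 11887 genes listed. A further alternative, chosen after seeing the data, left out the genes on the long arm of chromosome 1 and called 8070.

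Leaving out each library in turn gave 7776 to 8449 changed genes, 3846 to 4191 up and 3899 to 4258 down. At least 2-fold there were 1702 to 1812, 464 to 552 up and 1231 to 1287 down. The genes nearly off or on were 28 to 42, nearly off 15 to 28, with 28 without knockdown library 3, and nearly on 12 to 15. The cause was not tested.

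With a replicate block 8460 genes were called, 4213 up and 4247 down, and no named gene changed its call. The labels share replicate numbers between groups, but same-numbered libraries deviated together with r of 0.042, 0 and -0.02 across genes, so the numbers do not pair the libraries. No log2 fold change of a gene named turned its direction. Neighbours with small changes depended on scaling: by total counts alone NECTIN3 lost its call (adjusted p = 0.185) while BLOC1S1 (0.00674), DNAJC14 (0.00827) and ACTR8 (0.0182) gained one. MT-CO1 lost its call without control library 2. Genes with few reads set the limit, since many of the genes nearly off or on had few reads in the low group.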

Other observations

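Families outside the lists above moved in a divided way. Their counts stand beside 27.7% rises and 28% falls over all genes tested. Clustered protocadherins, adhesion proteins that give neurons a surface identity, rose in 14 of 34 and fell in 7. PCDHB8 had 16, 18.6 and 13.7 CPM in the knockdown against 4.63, 3.96 and 3.53 in the control, and PCDHB2 rose by 1.49, whereas PCDHGC4 had 2.03, 2.29 and 2.04 against 10.7, 11.4 and 9.39 and PCDHAC2 fell by 1.7. Beta cluster members are thus among the rises and C-type isoforms among the falls of those named. Classical and other cadherins were divided too, with CDH11 (1.5) and CDH2 (0.98) up and DCHS1 (-1.43) down among 9 rises and 8 falls in 23. Guidance genes showed 16 rises and 6 falls among 31 semaphorins, plexins, neuropilins and genes named for a plexin domain. SEMA5A (1.16) and PLXDC2, which is not itself a plexin (1.49), rose and PLXNA4 fell (-1.55). Netrins, slits and their receptors had 10 rises and 12 falls in 25, with UNC5B, a netrin receptor, down (-1.75) and SLIT2 up (0.91).

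Immune and signalling genes were detected in part. Of 171 chemokine, cytokine and receptor genes 37 were tested, of which 17 rose and 7 fell. IL13RA2, a decoy receptor for interleukin-13, had 38.5, 40.3 and 41.4 CPM against 5.95, 5.41 and 6.17, and IL1R1 rose by 1.38. Interferon response genes rose in 19 of 31 and fell in 5, with IFITM3 up (0.69) and OAS3 (-2.03) and OAS1 (-1.64) down. Of 14 complement genes 9 rose and 3 fell: CD46 (0.71) and CD59 (0.58), inhibitors on the cell surface, rose with CD55, which like CD46 lies on the long arm of chromosome 1, while C7, a part of the membrane attack complex, fell by 2.46. Tetraspanins had 10 rises and 11 falls in 24; beside CD63, TSPAN7 fell by 2.14 and CD9 by 1.05. Imprinted genes had 4 rises and 10 falls in 22, with DLK1 (-1.91) and RTL1 (-1.27) down and MEST up (0.75). Of 26 KLF and early growth response genes 9 rose (34.6%) and 10 fell (38.5%), against 27.7% and 28% of all genes tested, with EGR1 down by 1.02 and KLF6 up by 0.67. Metallothioneins, 3 tested, had no call in edgeR.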
